A study of Mus musculus with 6 samples.

Results

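A set of 10 named genes of fat cells and lipid handling were followed through bulk RNA-seq of mouse embryonic skin, namely *Fabp4*, *Pparg*, *Plin1*, *Plin4*, *Car3*, *Gpd1*, *Adipoq*, *Cd36*, *Lipe* and *Lpl*. They were taken by symbol from the deposited counts, and all 10 were found among 55536 listed Ensembl genes. Basal keratinocytes carrying Epcam and α6 integrin on their surface had been sorted from dorsal skin of E16.5 embryos (E, day of embryonic development), with 3 Ctrl and 3 TKO libraries. Embryos of both groups carried floxed *Suv39h1* and floxed *Setdb1*, given as flox/flox in the study. Both groups lacked *Suv39h2*, so Ctrl cells were also without that methyltransferase. TKO embryos carried K14CreERT2 in addition and Ctrl embryos did not, and both groups had received tamoxifen. The recombinase is driven by the K14 promoter, which is active in basal keratinocytes, and the study's list of litters marks those taken for bulk RNA-seq mosaic. Ctrl replicate 1 and TKO replicate 2 are marked F in the labels, and the other 4 libraries are marked M. The question was how these genes differed between TKO and Ctrl, and how they varied from library to library.

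White and brown fat cells store triglyceride in a droplet coated by perilipins. The nuclear receptor PPARγ, encoded by *Pparg*, works as a dimer with a retinoid X receptor and switches on most genes of the mature fat cell. Fatty acids enter from circulating lipoproteins through lipoprotein lipase and the scavenger receptor CD36, are carried in the cytosol by fatty acid binding proteins such as FABP4, and are released again by hormone-sensitive lipase. Dermal fat cells lie beneath the epidermis and arise from dermal fibroblast precursors, not from keratinocytes. Several of these genes have a life outside fat. *Fabp4* and *Cd36* are also active in capillary endothelium, *Cd36* and *Lpl* in macrophages, and *Car3*, *Cd36* and *Lpl* in skeletal muscle.

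Sequencing depth, as the sum of all counts, came to 102159175, 136515436 and 104422632 in Ctrl replicates 1, 2 and 3 and 116308383, 108957256 and 118413082 in TKO replicates 1, 2 and 3. Levels are given as CPM, counts scaled to a common library size after TMM normalization, which evens out library composition. A floor of 3 counts corresponded to 0.0232 to 0.0303 CPM and covers counting error only. Keratinocyte transcripts were abundant in every library. *Krt14*, a keratin of basal cells, was at 4203 to 6370 CPM and *Epcam* at 72.9 to 97.4 CPM. The suprabasal keratin *Krt10*, at 5694 to 9475 CPM, goes against a purely basal sort. Per kilobase of exon it was above *Krt14* in every library, with Ctrl means of 3983 and 3065 CPM. Fibroblast transcripts were present throughout, and Ctrl replicate 1 stood apart with the lowest sum of 8 fibroblast markers, 1211 CPM against 2179 to 3392 CPM in the other 5 libraries.

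TKO replicates 2 and 3 stood apart from the other 4 libraries in the adipocyte lipid genes, and TKO replicate 1 did not. The 10 genes together made up 19.9, 23.9 and 27.3 CPM in Ctrl replicates 1, 2 and 3. In TKO replicates 1, 2 and 3 they made up 19.4, 102 and 60.6 CPM. Relative to the Ctrl mean this was 0.818, 4.31 and 2.56. *Car3* was a large part of the sum, 37.5% in TKO replicate 2 and 25.7% in TKO replicate 3, and without it the ratios were 0.819, 2.81 and 1.98. For 9 of the 10 genes, all but *Lpl*, TKO replicates 2 and 3 were both above every Ctrl library. TKO replicate 1 lay within the Ctrl range for 7 genes, below it for *Plin1* and *Plin4* and above it for *Adipoq*. In bulk RNA a change in the number of cells of a type cannot be told apart from a change in RNA per cell.

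**Figure D1:**
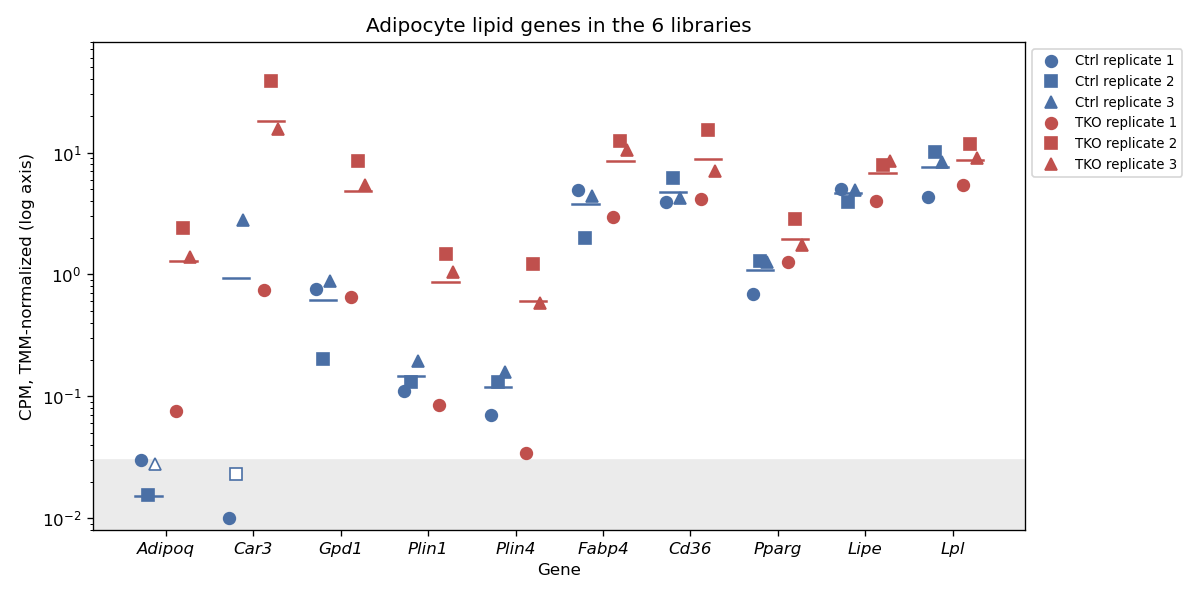
Level of each of the 10 genes in CPM on a log axis, with Ctrl in blue and TKO in red, circles, squares and triangles for replicates 1, 2 and 3, and a line at each group mean. Open symbols mark libraries with 0 counts, drawn at the floor of 3 counts, and the grey band lies below the highest floor of 0.0303 CPM. The TKO square and triangle lie above all Ctrl symbols for every gene except *Lpl*, while the TKO circle lies within the Ctrl range for 7 genes, below it for *Plin1* and *Plin4* and above it for *Adipoq*.

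*Pparg*, the regulator at the head of the program, lies on chromosome 6 (115337675 to 115468268, GRCm39). It was at 0.697, 1.28 and 1.26 CPM in Ctrl replicates 1, 2 and 3 and at 1.27, 2.87 and 1.73 CPM in TKO replicates 1, 2 and 3. Only TKO replicates 2 and 3 exceeded the Ctrl libraries, so the groups overlapped. On the log2 scale TKO exceeded Ctrl by 0.85 (standard error 0.432), and edgeR's quasi-likelihood test gave 0.896 after Benjamini-Hochberg adjustment. The log2 fold change was 0.47 without TKO replicate 2 and 1.08 without TKO replicate 1.

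The droplet coat genes were scarce in Ctrl and differed more. *Plin1* (chromosome 7, 79369966 to 79382718) encodes perilipin 1, which guards the droplet of fat cells against lipolysis. Its levels were 0.111, 0.132 and 0.195 CPM in Ctrl replicates 1, 2 and 3, which are 11, 17 and 21 counts. TKO replicates 1, 2 and 3 had 0.0850, 1.46 and 1.05 CPM, or 10, 161 and 128 counts. TKO replicate 3 thus held 5.40 times the highest Ctrl level while TKO replicate 1 held less than the lowest. *Plin4* (chromosome 17, 56406617 to 56416931), another perilipin of fat and muscle, showed the same split. It had 0.0707, 0.132 and 0.158 CPM in Ctrl replicates 1, 2 and 3, and 0.0340, 1.21 and 0.584 CPM in TKO replicates 1, 2 and 3. The log2 fold changes were 2.56 (standard error 0.864) for *Plin1* and 2.33 (standard error 0.995) for *Plin4*, and 1.95 and 1.35 without TKO replicate 2. Neither passed after adjustment in edgeR's quasi-likelihood test, at 0.609 and 0.791, and the groups overlapped through TKO replicate 1. With the replicate number as a block the unadjusted p-values in that test were 0.0347 for *Plin1* and 0.1066 for *Plin4*.

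*Adipoq* (chromosome 16, 22964106 to 22976810) encodes adiponectin, a hormone made almost solely by fat cells. It was at or under the floor in Ctrl, with 3, 2 and 0 counts in replicates 1, 2 and 3. TKO replicates 1, 2 and 3 held 9, 266 and 168 counts, which are 0.0765, 2.41 and 1.38 CPM. The groups did not overlap, but TKO replicate 1 was far closer to Ctrl than to the other TKO libraries. Summed over libraries and scaled by depth, TKO held 85.1 times the Ctrl count, with a 95% exact binomial interval of 36.2 to 263 that covers counting error only, not the spread between embryos. On the log2 scale this ratio was 6.41, and it ranged from 5.63 without TKO replicate 2 to 7.23 without Ctrl replicate 1. *Adipoq* was the only one of the 10 genes left out of the main test, because the filter on low counts asks for enough counts in at least 3 libraries. In edgeR's quasi-likelihood test without that filter its adjusted p-value was 9.82e-12, and in the default DESeq2 workflow 1.71e-06. Both rest mainly on TKO replicates 2 and 3. The fit without the filter also took *Fabp4* from an adjusted p-value of 0.793 to 0.0128 at nearly the same fold change. These p-values therefore depend on the filter and do not describe TKO replicate 1.

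Promoter sequence in the RefSeq set of GRCm38.p6 was matched for 6 of the 10 genes. Below are the 250 bases before the start site of *Plin1*, *Plin4* and *Adipoq*, shown because these 3 genes share the split between TKO libraries and were the scarcest of the 10 in Ctrl. Capitals mark matches, on either strand, to TTGCNNAA, a short form of the C/EBP motif, or to CCAAT. *Plin1* is at chr7:79732777-79733026 (minus strand), *Plin4* at chr17:56109783-56110032 (minus strand) and *Adipoq* at chr16:23146286-23146535 (plus strand), each printed 5′ to 3′ along the gene.
Plin1: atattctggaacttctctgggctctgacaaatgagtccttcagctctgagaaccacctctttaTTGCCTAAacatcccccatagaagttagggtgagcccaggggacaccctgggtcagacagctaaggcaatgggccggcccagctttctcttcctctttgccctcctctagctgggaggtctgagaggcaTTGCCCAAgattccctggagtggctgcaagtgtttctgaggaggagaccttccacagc
Plin4: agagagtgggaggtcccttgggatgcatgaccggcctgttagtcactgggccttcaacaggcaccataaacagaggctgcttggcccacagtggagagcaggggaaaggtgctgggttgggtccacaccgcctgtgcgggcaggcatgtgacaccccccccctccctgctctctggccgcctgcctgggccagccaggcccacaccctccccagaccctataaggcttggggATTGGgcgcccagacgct
Adipoq: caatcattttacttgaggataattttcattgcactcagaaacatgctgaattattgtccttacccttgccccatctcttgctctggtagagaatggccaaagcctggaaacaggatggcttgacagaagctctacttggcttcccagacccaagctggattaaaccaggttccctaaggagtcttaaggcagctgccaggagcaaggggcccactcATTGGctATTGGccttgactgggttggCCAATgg
*Plin1* held 2 matches to TTGCNNAA, as did a window of *Pparg*, and this motif occurs in 9.56% of 32851 RefSeq promoter windows of this length. *Adipoq* held 3 matches to CCAAT and *Plin4* 1, and windows of *Pparg* and *Cd36* held matches as well, against 33.8% of all windows with at least 1. AGGTCA, the core site bound by PPAR and RXR, was in none of the 3 windows, and was found in the window of *Cd36* and in 2 of the 3 windows of *Pparg*, against 14% of all windows. A direct repeat of that core with a single base between, which contains the core and so overlaps it, was in none of the members' windows and in 0.0335% of all windows. TATAAA was searched as well and was matched only in a window of *Pparg*, against 12.4% of all windows. These matches describe letters only. *Fabp4*, *Car3*, *Gpd1* and *Lpl* had no entry.

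*Fabp4* (chromosome 3, 10268785 to 10273737), the cytosolic carrier of fatty acids, was already well above the floor in Ctrl. Its levels were 4.95, 2.0 and 4.43 CPM in Ctrl replicates 1, 2 and 3 and 2.97, 12.4 and 10.4 CPM in TKO replicates 1, 2 and 3. TKO replicates 2 and 3 were above every Ctrl library and TKO replicate 1 was within their range. The Ctrl mean was 3.79 ± 1.58 CPM and the TKO mean 8.59 ± 4.97 CPM (mean ± SD of 3 libraries). For the log2 fold change of 1.18 (standard error 0.505), edgeR's quasi-likelihood test gave a p-value of 0.0421, or 0.793 once adjusted. With TKO replicate 1 left out the log2 fold change was 1.58, and with TKO replicate 2 left out 0.82. With the replicate number as a block it was 1.06, and the unadjusted p-value in edgeR's test was 0.1305.

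*Cd36* (chromosome 5, 17986432 to 18094067), the scavenger receptor that takes up long-chain fatty acids, was led by a single library. It was at 3.93, 6.20 and 4.22 CPM in Ctrl replicates 1, 2 and 3 and at 4.15, 15.4 and 7.03 CPM in TKO replicates 1, 2 and 3. TKO replicate 3 was only 1.13 times the highest Ctrl library. The log2 fold change of 0.89 (standard error 0.429) dropped to 0.22 without TKO replicate 2.

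*Lpl* and *Lipe* varied least. *Lpl* (chromosome 8, 69284603 to 69360100) encodes the lipase that frees fatty acids from circulating lipoproteins. It was at 4.29, 10.03 and 8.42 CPM in Ctrl replicates 1, 2 and 3 and at 5.38, 11.7 and 8.99 CPM in TKO replicates 1, 2 and 3. No split was seen, and the log2 fold change of 0.20 (standard error 0.359) turned to -0.081 without TKO replicate 2 and to -0.086 without Ctrl replicate 1. *Lipe* (chromosome 7, 25078880 to 25098135) encodes hormone-sensitive lipase, which hydrolyses stored fat. Its Ctrl libraries were close together at 5.04, 3.92 and 4.95 CPM, and TKO replicates 1, 2 and 3 were at 4.04, 7.92 and 8.52 CPM. *Lipe* was the only member that was higher in TKO replicate 3 than in TKO replicate 2, and its log2 fold change was 0.56 (standard error 0.309).

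The cytosolic enzymes of fat and muscle had the highest levels per kilobase of exon among the 10 genes in TKO replicate 2. For *Gpd1* this rests on exon length, since *Fabp4*, *Cd36* and *Lpl* had higher CPM in that library. The length used for *Fabp4* is its whole annotated span, so the order of *Gpd1* and *Fabp4* is uncertain. *Gpd1* (chromosome 15, 99615396 to 99622893) encodes glycerol-3-phosphate dehydrogenase, which supplies the backbone of triglyceride. It was at 0.757, 0.201 and 0.881 CPM in Ctrl replicates 1, 2 and 3 and at 0.654, 8.53 and 5.39 CPM in TKO replicates 1, 2 and 3. TKO replicates 2 and 3 were 9.68 and 6.11 times the highest Ctrl library, and TKO replicate 1 lay among the Ctrl libraries. Its log2 fold change of 2.99 (standard error 0.847) had the smallest p-values among the 9 tested genes, 0.00596 unadjusted and 0.413 adjusted, in edgeR's quasi-likelihood test. The fold change was 2.30 without TKO replicate 2, on the same log2 scale. With the replicate number as a block the unadjusted p-value of *Gpd1* was 0.0754, larger than those of *Cd36*, *Plin1* and *Pparg*.

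*Car3* (chromosome 3, 14928489 to 14937595) encodes carbonic anhydrase 3, an abundant cytosolic protein of fat cells and slow skeletal muscle. Its counts were 1, 0 and 299 in Ctrl replicates 1, 2 and 3 and 87, 4227 and 1893 in TKO replicates 1, 2 and 3. In CPM, Ctrl replicate 3 was at 2.77 and TKO replicates 1, 2 and 3 were at 0.739, 38.3 and 15.6. Ctrl was therefore itself split, with a single library well above TKO replicate 1. The log2 fold change was 4.30 with a standard error of 2.50, and it was 11.69 when Ctrl replicate 3 was left out, 3.70 without Ctrl replicate 2 and 3.13 without TKO replicate 2. Its adjusted p-value was 0.9998 in edgeR's quasi-likelihood test.

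In edgeR's test over 20622 genes, calls required an adjusted p-value under 0.05 together with a log2 fold change beyond 1 in size. None of the 9 tested members was called, while 27 genes, or 0.131% of all tested, were called, every one of them higher in TKO. DESeq2 on the same genes called 0 of the 9. Of all genes it called 193 (0.936%) as higher in TKO and 21 as lower. With no adjustment and a p-value under 0.05, edgeR found *Fabp4*, *Plin1*, *Plin4* and *Gpd1* higher, 4 of 9, beside 4.06% of all tested genes, and DESeq2 added *Cd36*. All 9 log2 fold changes were above 0, with a median of 1.18 against 0.013 for all tested genes. The number at an unadjusted p-value under 0.05 rested on single libraries. Of the same 9 genes it was 7 without TKO replicate 1 (3.79% of all genes then tested), but 1 without TKO replicate 2 (1.82%), 2 without TKO replicate 3 (5.65%) and 2 without Ctrl replicate 2 (3.57%). With the replicate number as a block it was 2, *Plin1* and *Cd36*, beside 4.66% of all genes, and 45 genes were called, none of them a member. In edgeR's test without the filter on low counts, 235 of 39690 tested genes were called. Among these were 4 members, namely *Fabp4* (adjusted p-value of 0.0128), *Plin1* (0.0305), *Gpd1* (0.0147) and *Adipoq*. None of the 9 tested members had groups that did not overlap, against 6.35% of all genes that were higher in every TKO library and 5.11% that were lower. TKO replicates 2 and 3 were the highest pair of libraries for 8 of the 9, all but *Lpl*, and for 7.4% of all tested genes.

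**Figure D2:**
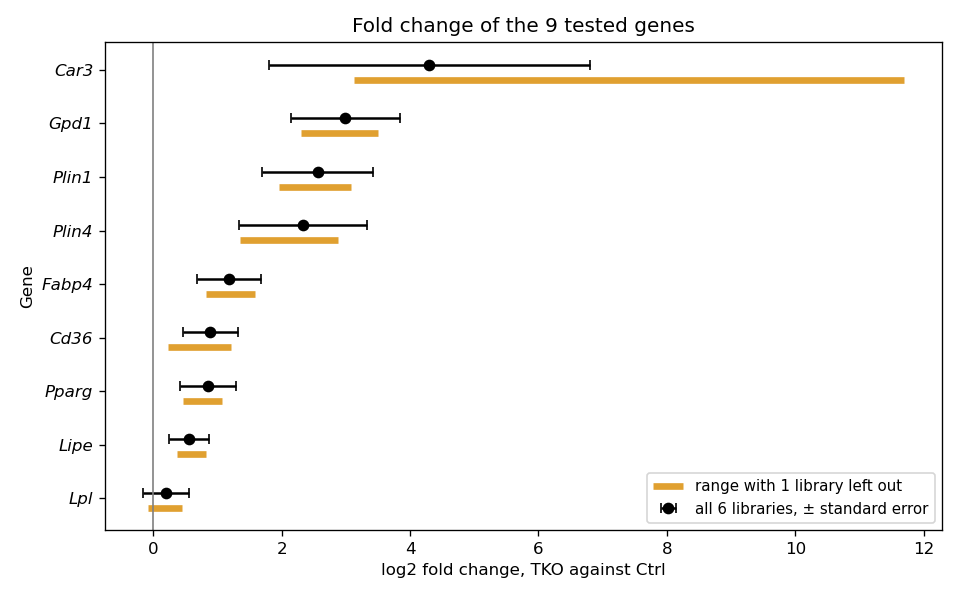
Log2 fold change of TKO against Ctrl for the 9 tested genes. Black points are the fit to all 6 libraries with the standard error, and orange bars span the 6 fits with 1 library left out. *Car3* has the longest bar, up to 11.69, and the bar of *Lpl* crosses 0.

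The order of levels between genes was read per kilobase of exon. In Ctrl the mean levels were 0.778 CPM per kilobase for *Lipe*, 0.766 for *Fabp4* and 0.620 for *Lpl*. On these lengths the 3 did not differ beyond their spread, since *Fabp4* alone ranged from 0.403 to 0.999 between Ctrl libraries. The annotated exons of *Fabp4* together cover its whole span of 4953 bases. Its level per kilobase may therefore be too low, and its place in the order depends on that length. *Cd36* followed at 0.379 and *Car3* at 0.30, the latter from a single library. *Gpd1* was at 0.194 and *Pparg* at 0.155, *Plin1* and *Plin4* were at 0.0229 and 0.0150, and *Adipoq* came last at 0.00670. In TKO replicate 2 the order was different, with *Car3* at 12.4 CPM per kilobase, *Gpd1* at 2.698, *Fabp4* at 2.50, *Lipe* at 1.33, *Cd36* at 1.22 and *Adipoq* at 1.06. The related carrier *Fabp5*, which is typical of keratinocytes, was at a mean of 138 CPM per kilobase over all 6 libraries, against 1.25 for *Fabp4*.

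The members were compared with each other over the 6 libraries on log2 CPM. Pearson's r was above 0 in all 45 pairs and stayed so after the group means were removed. Exact permutation p-values, two-sided and adjusted over the 45 pairs, were under 0.05 for 3 pairs by Pearson's r, *Fabp4* with *Gpd1*, *Pparg* with *Cd36* and *Plin1* with *Plin4*, and for 0 pairs by Spearman's rho. TKO replicates 2 and 3 form a separate set for most members, and the other 4 libraries are too few to test a relation within them. With the 2 libraries farthest from the median of the first gene of a pair removed, 34 of the 45 pairs kept an r above 0. The libraries removed were TKO replicates 2 and 3 in 23 of the pairs, of which 12 kept an r above 0. In all other pairs TKO replicate 3 stayed in, and which libraries were removed depended on the gene named first. The 34 therefore does not describe the pairs without the split.

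Likeness to *Fabp4* was ranked by Pearson's r of log2 CPM over the 6 libraries, among 13870 tested genes with a mean of at least 1 CPM. *Trim8* (0.98), *Pxn* (0.98), *Arhgef2* (0.98), *Scarb1* (0.98) and the member *Gpd1* (0.98) led the list. *Scarb1*, a lipoprotein receptor, went from 34.5 to 37.8 CPM in Ctrl to 43.2 and 41.2 CPM in TKO replicates 2 and 3, so its range was far smaller than that of *Fabp4*. For *Adipoq* the list was *Cxcl16*, *Gm5784*, *Miip*, *Cgnl1* and *Gm11131*, from 0.995 down to 0.98. *Cxcl16*, a chemokine, was at 2.35 to 2.57 CPM in Ctrl and at 2.86, 5.20 and 4.82 CPM in TKO replicates 1, 2 and 3. For *Car3* it was *Glis2*, *Mtcl1*, *Dhrs11*, *Mapk4* and *Tmem255a*, from 0.991 down to 0.986. With 6 libraries such values describe order and shape alone.

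Fat and lipid metabolism beyond the 10 genes was read from 6 lists written by hand, which held 69 genes, of which 56 were tested. edgeR's test called 0 of the 56, and 2 were higher and 4 lower at an unadjusted p-value under 0.05, beside 4.06% and 2.02% of all tested genes. DESeq2 on the same genes called none of them. The median log2 fold change of the 56 was -0.041. TKO replicates 2 and 3 were the highest pair for 7 of the 56, beside 7.4% of all tested genes. The 5 tested adipokine and hormone genes had a median of 0.41 and the 5 tested thermogenic genes a median of 0.70, with no call in either list. The 2 higher genes were *Aqp7*, the glycerol channel of fat cells, and *Kcnk3*, a potassium channel used here as a thermogenic marker. *Aqp7* was at 0.0505, 0.116 and 0.0742 CPM in Ctrl replicates 1, 2 and 3 and at 0.110, 0.915 and 0.238 CPM in TKO replicates 1, 2 and 3. *Kcnk3* was at 0.172, 0.0232 and 0.195 CPM in Ctrl and at 0.204, 1.04 and 0.666 CPM in TKO, in the same order of replicates. Both again were highest in TKO replicates 2 and 3.

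The 4 lower genes belong to lipid synthesis, droplets and lipolysis, which keratinocytes share. *Scd1*, a fatty acid desaturase, was at 45.9, 57.5 and 43.7 CPM in Ctrl replicates 1, 2 and 3 and at 25.2, 25.6 and 40.1 CPM in TKO replicates 1, 2 and 3. On the log2 scale the difference was -0.69 (standard error 0.207), and edgeR's adjusted p-value was 0.451. *Scd2*, *Plin3* and *Mgll* had log2 fold changes of -0.41, -0.31 and -0.36. For *Scd1*, *Plin3* and *Mgll* every TKO library was below every Ctrl library, TKO replicate 1 included. In all, 5 of the 56 tested genes were lower in this way, with *Srebf1* and *Hilpda* as the other two, and 3 were higher, beside 5.11% and 6.35% of all tested genes. Among 11 fat cell regulators other than *Pparg*, edgeR and DESeq2 called none. At an unadjusted p-value under 0.05 edgeR found none and DESeq2 found *Ebf2*, at 0.0496. *Cebpa*, which partners *Pparg* in fat cells and is abundant in epidermis, had a Ctrl mean of 124 ± 17.8 CPM and a TKO mean of 105 ± 6.67 CPM (mean ± SD of 3 libraries). *Ebf2*, a factor of preadipocytes, was at 3.68 CPM in TKO replicate 2 and at 0.454 to 1.04 CPM in the other 5 libraries.

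Other fat cell products had few counts and were not tested. *Thrsp*, a lipogenic factor, had 2, 0 and 0 counts in Ctrl replicates 1, 2 and 3 and 5, 27 and 36 in TKO replicates 1, 2 and 3. *Cidec*, a droplet fusion protein, had 8, 2 and 0 counts in Ctrl and 0, 50 and 0 in TKO. For *Cidec* TKO replicate 2 thus stood alone. Droplet genes also went the other way, with 2, 20 and 14 counts of *Fitm1* in Ctrl and 0 in every TKO library, and 15, 8 and 9 counts of *Cideb* in Ctrl against 6, 0 and 0 in TKO. The hormone *Lep* had at most 9 counts in any library, and the secreted fat cell proteins *Cfd* and *Retn* had at most 18 and 21, each in TKO replicate 3. *Ucp1*, the uncoupling protein of brown fat, had at most 6.

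**Figure D3:**
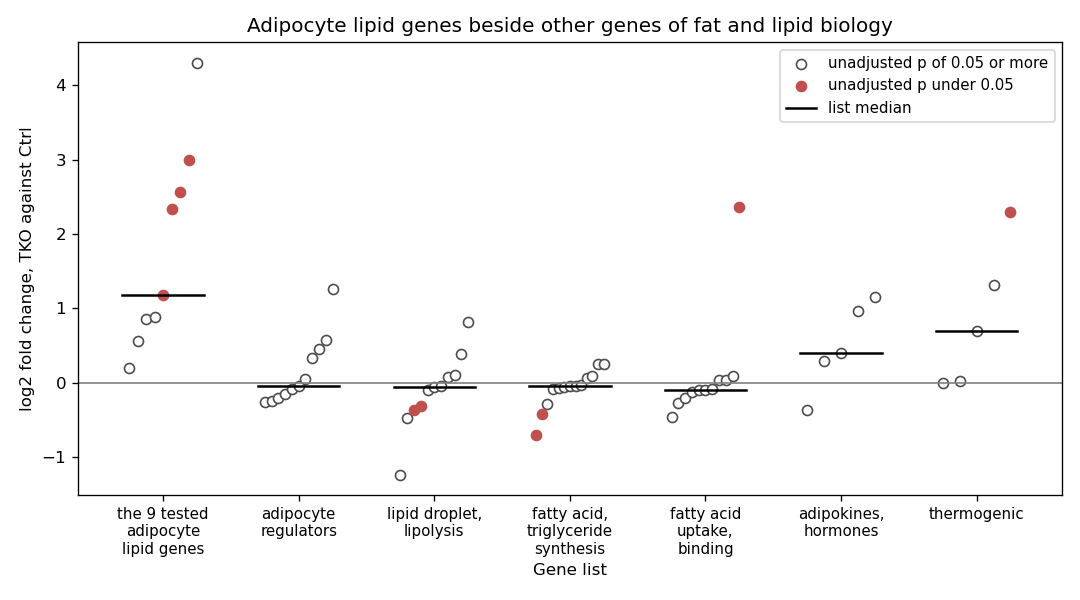
Log2 fold change of TKO against Ctrl for each tested gene, by list, with the list median as a line and genes at an unadjusted p-value under 0.05 in red. The 9 tested adipocyte lipid genes have a median of 1.18, while the 4 lists of regulators, droplet, synthesis and uptake genes centre near 0 and *Aqp7* and *Kcnk3* stand above their lists.

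Markers of other cell types also varied between libraries, some of them with the adipocyte lipid genes. The 8 endothelial markers summed to 32.4, 30.3 and 43.3 CPM in Ctrl replicates 1, 2 and 3 and to 29.2, 72.1 and 57.6 CPM in TKO replicates 1, 2 and 3. *Cdh5*, the gene with the highest CPM among them, had a log2 fold change of 0.91 with an unadjusted p-value of 0.0350 in edgeR's test. TKO replicates 2 and 3 were the highest pair for 5 of the 8, beside 7.4% of all tested genes. The 8 skeletal muscle markers summed to 3.42, 4.54 and 3.79 CPM in Ctrl and to 6.89, 10.9 and 15.3 CPM in TKO, highest in TKO replicate 3. In that list *Myh3*, the embryonic myosin, was called, with the highest mean CPM over all libraries though below *Mylpf* in each Ctrl library, and 2 of 8 were called by DESeq2. The 8 macrophage and leukocyte markers summed to 32.0, 62.1 and 19.9 CPM in Ctrl and to 11.1, 103 and 25.01 CPM in TKO. All 8 were highest in TKO replicate 2, with *Csf1r* at 30.7 and *Lyz2* at 33.7 CPM there, while TKO replicate 3 lay within the Ctrl range. The 6 erythroid markers, mainly *Hba-a1* and *Hbb-bs*, summed to 20.2, 77.9 and 68.4 CPM in Ctrl and to 65.5, 79.6 and 141 CPM in TKO. None of the markers in these 4 lists was at 0 in every library. The part of these cell types in the levels of the 10 genes was not tested.

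Fibroblast and mural markers did not follow the split. Fibroblast markers, of which *Col1a1* had the highest CPM, summed to 1211, 3392 and 3033 CPM in Ctrl replicates 1, 2 and 3 and to 2179, 2582 and 2831 CPM in TKO replicates 1, 2 and 3. Both high TKO libraries were thus within the Ctrl range. The 6 mural and smooth muscle markers, of which *Cspg4* had the highest CPM, summed to 68.4, 72.4 and 96.5 CPM in Ctrl and to 65.3, 79.0 and 113 CPM in TKO. Of the remaining lists, the 6 melanocyte markers (highest CPM in *Mitf*) were at 6.66 to 13.7 CPM, with *Mlana* (log2 fold change 3.13) called by DESeq2 and not by edgeR, and the 5 Schwann cell markers (highest CPM in *Erbb3*, also a keratinocyte gene) at 176 to 271 CPM over the 6 libraries. The 6 sebocyte markers summed to 25.3, 22.5 and 28.5 CPM in Ctrl and to 52.9, 34.3 and 38.4 CPM in TKO, so the groups did not overlap. Most of this was *Mgst1*, an enzyme not limited to sebocytes, for which edgeR's test gave 0.00179 before and 0.233 after adjustment, and the sebocyte enzyme *Awat1* was at 0 in all libraries. The 8 basal keratinocyte markers, of which *Krt5* had the highest CPM, summed to 0.677, 0.759 and 0.867 of their Ctrl mean in TKO replicates 1, 2 and 3. The lower sums came from *Krt5*, *Krt14* and *Krt15*, while 4 of the 8 markers had a log2 fold change above 0. *Krt15* (log2 fold change -1.18) was called by DESeq2 and not by edgeR. The 6 matched suprabasal markers, of which *Krt1* had the highest CPM, were at 0.861, 0.650 and 0.690 of theirs. These sums were mostly *Krt1* and *Krt10*, and other members differed, with *Krtdap* highest in TKO replicate 3 and *Sbsn* in TKO replicate 2.

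**Figure D4:**
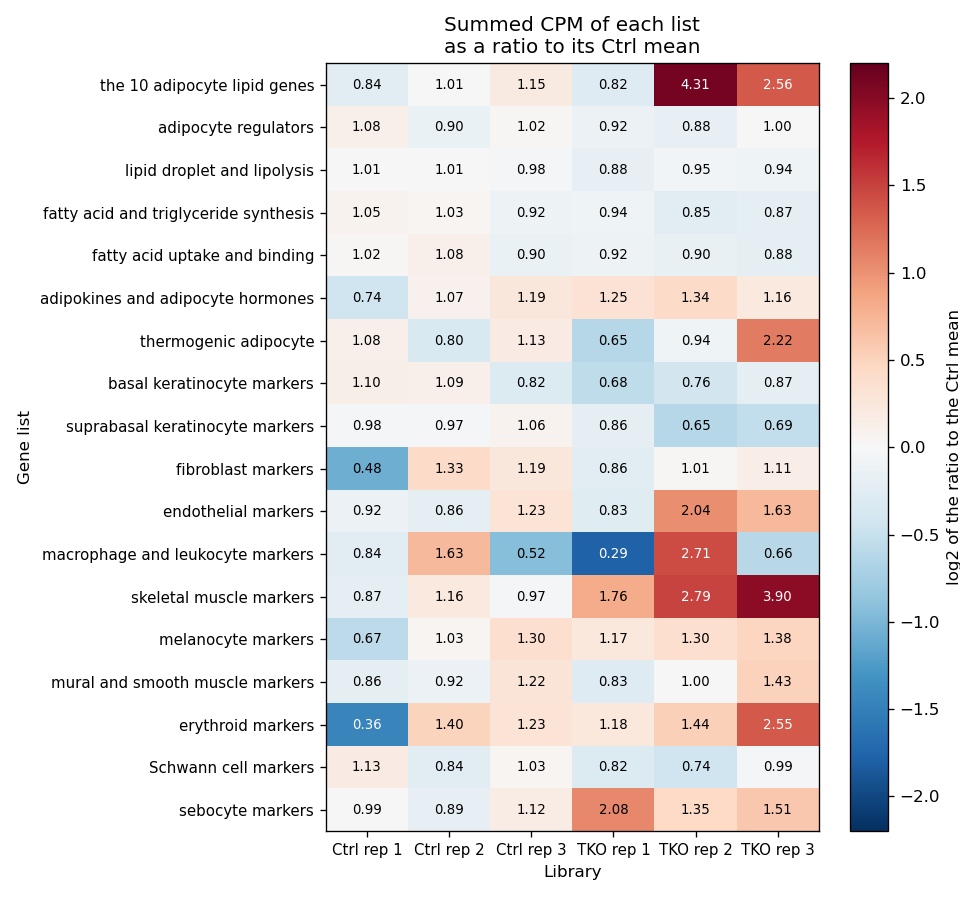
Summed CPM of each gene list in each of the 6 libraries, as a ratio to the mean of the 3 Ctrl libraries, with the ratio printed and coloured on a log2 scale. The 10 adipocyte lipid genes stand at 4.31 and 2.56 in TKO replicates 2 and 3, the endothelial markers at 2.04 and 1.63 and the skeletal muscle markers at 2.79 and 3.90. In TKO replicate 1 these lists stand at 0.82, 0.83 and 1.76 in that order, so the muscle markers were raised there as well.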

How the data were processed

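Bulk RNA-seq libraries from sorted E16.5 basal cells were made by the authors after rRNA depletion. Reads were trimmed with fastp and aligned with STAR, and the authors deposited raw counts per Ensembl gene, not normalized and not pooled. The methods name GRCm39 and the submitters' processing notes name GRCm38. The counting program, its annotation and its strand setting are not given in the sources used here. Of the 10 genes 9 (all but *Plin1*) overlap a gene annotated on the other strand, so reads could be shared. Symbols, GRCm39 positions and exon lengths came from GENCODE vM39, which matched 51477 of 55536 listed genes, and the marker *Lor* was not matched.

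Groups and replicate numbers came from the sample titles. The labels do not say that replicates came from separate litters, so p-values measure the spread between these libraries. The tests were run with edgeR 4.0.16 under R 4.3.3 (low counts removed by filterByExpr at 10 per library and 15 in total, TMM, glmQLFit robust, glmQLFTest, Benjamini-Hochberg adjustment), which left 20622 genes. Standard errors are the log2 fold change divided by the square root of F. Log2 CPM used a prior count of 2. Motif searches read letters on both strands, and figures were drawn with matplotlib 3.10.9. Libraries of the same number tended to deviate together from their group means, with correlations of 0.14, 0.141 and 0.333 over genes of at least 1 CPM, although Ctrl replicate 1 and TKO replicate 2 also reached 0.129. The numbers were therefore taken as pairing the samples. Values are from the fit without the block unless stated. Blocked values are given for the counts of genes and for *Fabp4*, *Plin1*, *Plin4* and *Gpd1*. The study took Cre-negative littermates as controls and lists 3 litters for bulk RNA-seq. The sources used here do not tie a number to a litter, and over all tested genes the correlations were 0.168, 0.0873 and 0.127. Alternatives were RLE and upper quartile scaling, no filter, more than 1 CPM in at least 3 libraries, DESeq2 1.42.0, the replicate number or sex as a covariate, no robust estimation, no fold threshold, and each library left out in turn. The scripts were tested on simulated data. The 10 genes and all lists were chosen with earlier results of these data known. All 10 are named. Of the pathway lists, genes at an unadjusted p-value under 0.05 are named, and of the cell type lists the gene with most CPM, by its mean over all libraries. The 5 genes most like *Fabp4*, *Adipoq* and *Car3* are also named. Others (*Ebf2*, *Thrsp*, *Cidec*, *Lep*, *Cfd*, *Retn*, *Ucp1*, *Cebpa*, *Fabp5*, *Krt10*, *Krt14*, *Epcam*, *Lyz2*, *Mylpf*, *Hbb-bs*, *Srebf1*, *Hilpda*, *Awat1*, *Fitm1*, *Cideb*, *Krt15*, *Krtdap*, *Sbsn*, *Mlana*) were chosen after their values were seen.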

Additional observations from a re-analysis of the deposited data

How the results depend on the processing

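The number of genes called moved from 27 to 235 without the low-count filter and to 45 with the replicate block. It was 214 with DESeq2 on the same genes and 227 in its default workflow. With 1 library left out it lay between 7 (without Ctrl replicate 2) and 81 (without TKO replicate 3). Leaving out any Ctrl library or TKO replicate 2 gave 15 or fewer. Calls lower in TKO were 0 in the main fit, 22 without the filter and 1 with the block. They were 21 with DESeq2 on the same genes, 29 in its default workflow and 16 without TKO replicate 3. The number of members called was 0, beside 27 of 20622 genes. It was 4 without the filter (235 of 39690 genes) and 1 (*Adipoq*) in the default DESeq2 workflow (227 of 29042 genes). With 1 library left out it was 0 to 1. The 1 was *Adipoq* without TKO replicate 1, where it entered the test only through the 2 high TKO libraries. In that fit 25 of 21671 genes were called in all. The 4 members higher at an unadjusted p-value under 0.05 became 1 (*Fabp4*) among genes with more than 1 CPM in at least 3 libraries, where *Plin1*, *Plin4*, *Gpd1* and *Adipoq* were not tested, and 1 to 8 with 1 library left out, the 8 including *Adipoq* without TKO replicate 1. The 6 pathway genes at that threshold became 11 without the filter, 2 with sex as a covariate, and 2 (without TKO replicate 2) to 9 with 1 library left out. *Fabp4* kept its direction in all 15 alternatives, between 0.82 and 1.58, and its adjusted p-value fell under 0.05 only without the filter, where the log2 fold change was 1.14 (adjusted p-value of 0.0128 in edgeR's test, and 0.0128 to 1 over the alternatives). *Lpl* turned to between -0.086 and 0.45 with 1 library left out. The other tested members kept their direction in every alternative that tested them. The causes were not tested.

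With the replicate block 2 members had an unadjusted p-value under 0.05 in place of 4, none was called, and *Fabp4* had a log2 fold change of 1.06, so the block changed no call of a member. The pairing itself depends on which genes enter the check, since only the set of at least 1 CPM had every correlation above 0.1. *Adipoq*, *Plin1* and *Plin4* rest on few counts in Ctrl, and *Car3* on a single Ctrl library, which limits their fold changes.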
